A study of Mus musculus with 12 samples.

Results

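The genes described here are 10 that endothelial cells, the cells lining blood vessels, use to sense growth factors and to hold on to each other: Kdr, Flt1, Tek, Tie1, Pecam1, Cdh5, Cldn5, Emcn, Vwf and Sox18. They were chosen by name, and all 10 were found among the 55487 Ensembl gene IDs that were counted in each library. RNA had been sequenced from 12 mammary gland libraries of female C57BL/6 mice, an inbred laboratory strain, at postnatal day 84. Folic acid had been given at 5 mg/kg to the mice behind 6 libraries and at 1 mg/kg to those behind the other 6, numbered as replicates 1 to 6 of each dose, and all pads were taken 4 weeks after the supplementation. Folic acid is the synthetic form of the vitamin folate, and all mice had received it, so no library stands for an unsupplemented animal. The right thoracic fat pad had been taken intact, so each library mixes vessels with fat, epithelium, muscle and any lymphoid tissue in the pad. The question was whether the dose left a difference in the level of these genes.

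Vessels grow and stay quiet through a few receptor systems on the endothelial surface. Vascular endothelial growth factors (VEGFs) act through the receptor tyrosine kinases encoded by Kdr and Flt1, and angiopoietins act through the kinase encoded by Tek, with the related Tie1 as its partner. Cdh5, Cldn5 and Pecam1 encode proteins of the contacts between neighbouring endothelial cells, Emcn and Vwf encode a surface and a secreted glycoprotein, and Sox18 encodes a transcription factor of developing blood and lymphatic vessels. The mammary fat pad is served by a dense capillary bed around its adipocytes and ducts.

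The promoter sequences of 6 of the 10 genes were matched in RefSeq (GRCm38.p6), each from 250 bases before to 50 bases after the annotated start. Those of 4 genes are printed because the results turn on them as pairs. Tie1 and Tek are the receptor partners whose levels varied to a different extent. Flt1 and Emcn had the highest correlation of any pair over the 12 libraries, though not within strata by lymphoid content. Capitals mark 3 motifs on either strand. The first is GGAA, the core that transcription factors of the ETS family bind. The second is AACAAT, which members of the SOX family bind. The last is AGATAA, a motif for factors of the GATA family.
Tie1: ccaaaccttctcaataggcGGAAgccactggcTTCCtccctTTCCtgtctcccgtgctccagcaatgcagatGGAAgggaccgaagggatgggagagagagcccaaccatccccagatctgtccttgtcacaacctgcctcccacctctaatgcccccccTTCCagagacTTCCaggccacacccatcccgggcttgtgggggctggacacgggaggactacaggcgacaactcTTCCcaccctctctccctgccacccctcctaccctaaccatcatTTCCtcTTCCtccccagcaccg
Tek: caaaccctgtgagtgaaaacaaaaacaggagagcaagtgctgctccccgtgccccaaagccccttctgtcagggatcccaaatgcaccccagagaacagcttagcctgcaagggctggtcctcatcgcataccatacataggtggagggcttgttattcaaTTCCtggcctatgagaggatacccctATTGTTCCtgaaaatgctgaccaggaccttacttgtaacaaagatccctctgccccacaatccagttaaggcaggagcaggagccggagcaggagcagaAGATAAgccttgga
Flt1: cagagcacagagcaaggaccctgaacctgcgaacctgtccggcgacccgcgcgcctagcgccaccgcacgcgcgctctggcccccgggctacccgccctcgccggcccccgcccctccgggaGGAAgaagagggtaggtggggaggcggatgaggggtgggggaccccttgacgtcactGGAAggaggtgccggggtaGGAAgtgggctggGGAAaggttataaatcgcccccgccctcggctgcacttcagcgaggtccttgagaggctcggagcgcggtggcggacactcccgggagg
Emcn: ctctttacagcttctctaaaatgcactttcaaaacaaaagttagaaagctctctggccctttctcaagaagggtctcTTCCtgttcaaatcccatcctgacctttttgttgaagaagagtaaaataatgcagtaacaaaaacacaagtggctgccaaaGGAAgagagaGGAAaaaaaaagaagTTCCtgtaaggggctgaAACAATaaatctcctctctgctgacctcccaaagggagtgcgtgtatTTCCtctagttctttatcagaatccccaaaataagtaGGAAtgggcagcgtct

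These windows are chr4:118489800-118490099 on the minus strand for Tie1, chr4:94739039-94739338 on the plus strand for Tek, chr5:147725962-147726261 on the minus strand for Flt1 and chr3:137340828-137341127 on the plus strand for Emcn. The starts are those of RefSeq. In the GENCODE vM21 annotation Tie1 reaches to chr4:118490061, so by that annotation most of its window lies inside the gene. GGAA occurred 9 times in the Tie1 window, 2 times in Tek, 4 times in Flt1, 6 times in Emcn, 5 times in Kdr and 0 times in Cldn5. This 4-letter core is common, and 96.0% of 32851 mouse promoters of this length held it on one strand or the other. AACAAT occurred 1 time each in the Tek and Emcn windows, and 10.7% of all promoters held it; in Tek it overlaps a GGAA read on the same strand. AGATAA occurred 1 time in the Tek window, against 11.2% of all promoters. The longer ETS motif CCGGAAGT (3.89% of promoters) and the forkhead motif TGTTTAC (3.65%) were in none of the 6 windows. A match describes letters in the window, not a bound site.

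Libraries held 52.6 to 75.3 M gene-assigned reads at 5 mg/kg, against 48.2 to 71.1 M at 1 mg/kg, where M is the mega prefix. Values below are CPM, reads of a gene per M reads scaled to a common library size with trimmed-mean (TMM) factors, so each is a level relative to the rest of the RNA in the pad. The genes had between 189 reads, for Sox18, and 9530 reads, for Pecam1, in a library, and all 10 passed the filter on low counts. Libraries differed in lymphoid RNA. Ms4a1, which encodes the B cell surface protein CD20, stood at 49.0, 104, 94.9, 0.703, 1.37 and 0.482 CPM in replicates 1 to 6 at 5 mg/kg, against 152, 0.554, 17.7, 0.577, 125 and 140 CPM in replicates 1 to 6 at 1 mg/kg. Libraries with 5 CPM or more are called lymphoid-rich here (3 at 5 mg/kg, against 4 at 1 mg/kg), and those below are called lymphoid-poor (3 and 2). All 14 blood endothelial markers, these genes among them, were detected, with a summed level of 544 to 657 CPM at 5 mg/kg, against 439 to 639 CPM at 1 mg/kg. In whole tissue, fewer endothelial cells and less RNA per endothelial cell cannot be told apart.

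No gene passed the dose comparison over all libraries. In edgeR's quasi-likelihood test with Benjamini-Hochberg adjustment, 0 of 18647 genes had an adjusted p under 0.05 (0% of those tested), and so 0 of the 10 endothelial genes did. DESeq2 and limma-voom with sample quality weights also called 0 genes. Before adjustment, 359 genes (1.93%) had a p under 0.05, and 1 of the 10, Tie1, was among them. The groups did not overlap for 8 genes (0.0429%) and for 0 of the 10. Of the 10, 9 had a positive log2 fold change of 5 mg/kg over 1 mg/kg and Pecam1 had a negative one, where 47.2% of all tested genes were positive. The median log2 fold change was 0.15 over the 10 genes, beside -0.018 over all tested genes.

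**Figure D1:**
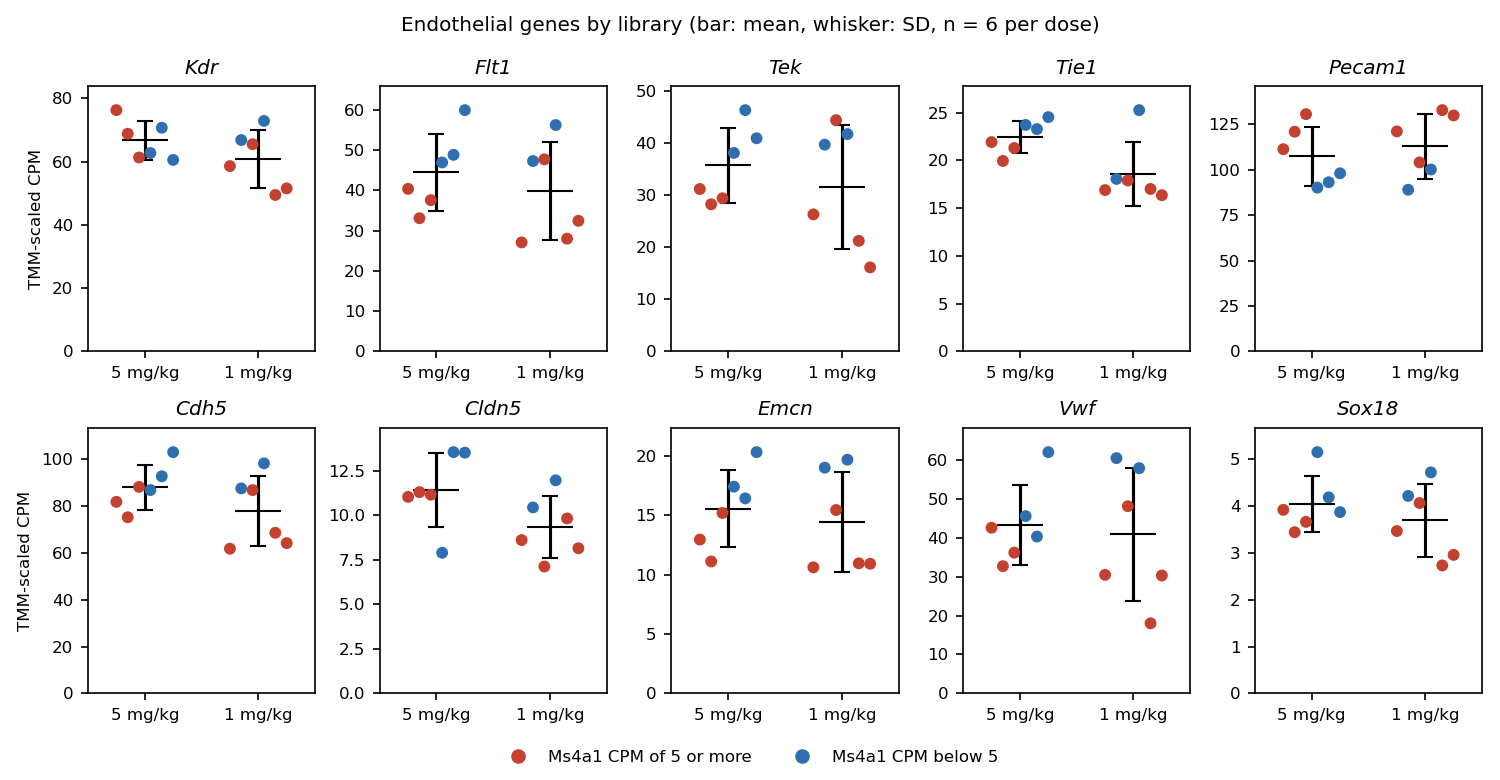
TMM-scaled CPM (vertical axis, from 0) of the 10 genes in each library, with 5 mg/kg on the left and 1 mg/kg on the right of each panel; points are libraries coloured by Ms4a1 level, and bars with whiskers are the mean and SD of 6. The doses overlap in every panel, and in every panel but that of Pecam1 the lowest point is a red 1 mg/kg library, while in Pecam1 the red points are the high ones.

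Neither VEGF receptor passed the dose comparison, and the spread of the libraries was larger than the difference of the means. Kdr (ENSMUSG00000062960, chr5:75932827-75978458, minus strand) encodes VEGFR2, the main signalling receptor for VEGF-A in endothelium. Its lowest, median and highest levels were 60.5, 65.7 and 76.3 CPM at 5 mg/kg, against 49.4, 62.0 and 72.8 CPM at 1 mg/kg. In the 1 mg/kg group, replicates 1, 5 and 6, with 58.6, 49.4 and 51.5 CPM, lay below every 5 mg/kg library, and the remaining libraries of the doses overlapped. Its log2 fold change was 0.13 ± 0.12 (SE), with an adjusted p of 0.943 in edgeR's quasi-likelihood test.

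Flt1 (ENSMUSG00000029648, chr5:147561604-147726011, minus strand) encodes VEGFR1, which binds VEGF tightly and also exists as a soluble form that traps it. It ranged over 33.1, 43.7 and 59.9 CPM (lowest, median, highest) at 5 mg/kg, against 27.1, 39.9 and 56.2 CPM at 1 mg/kg. Here too the lowest values, 27.1, 28.0 and 32.5 CPM, were in 1 mg/kg libraries, namely replicates 1, 5 and 6, which were also the highest in Ms4a1. The log2 fold change of 0.16 ± 0.21 did not pass (edgeR adjusted p 0.943). The level of Flt1 over Kdr per kilobase of exon was 0.32 to 0.66 at 5 mg/kg, against 0.31 to 0.52 at 1 mg/kg. The length of a gene is here that of all its annotated exons merged. By lymphoid content that ratio was 0.31 to 0.49 in the 7 lymphoid-rich libraries and 0.46 to 0.66 in the 5 lymphoid-poor ones. Flt1 was thus below Kdr in every library, and nearer to it mostly where Ms4a1 was low.

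Of the angiopoietin receptor pair, Tie1 had the smallest p of the 10 genes and Tek had wide groups. Tek (ENSMUSG00000006386, chr4:94739289-94874976, plus strand) encodes TIE2, the receptor that angiopoietins bind. Its lowest, median and highest levels were 28.2, 34.6 and 46.2 CPM at 5 mg/kg, against 16.1, 32.9 and 44.3 CPM at 1 mg/kg. The 1 mg/kg group held both extremes of the lymphoid-rich libraries, with 16.1 CPM in replicate 6 and 44.3 CPM in replicate 3. Its log2 fold change was 0.18 ± 0.25 (edgeR adjusted p 0.943).

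Tie1 (ENSMUSG00000033191, chr4:118471191-118490061, minus strand) encodes TIE1, which binds no angiopoietin by itself with high affinity and modulates TIE2. Its levels were 21.9, 19.9, 21.3, 23.7, 23.3 and 24.5 CPM in replicates 1 to 6 at 5 mg/kg, against 16.9, 18.1, 17.9, 25.3, 17.0 and 16.4 CPM in replicates 1 to 6 at 1 mg/kg. Every 5 mg/kg library was above 5 of the 6 libraries at 1 mg/kg, and replicate 4 at 1 mg/kg was the highest of all 12. The mean was 22.4 ± 1.70 CPM at 5 mg/kg, against 18.6 ± 3.34 CPM at 1 mg/kg (SD, n = 6 each), and the log2 fold change was 0.27 ± 0.12 (95% interval 0.021 to 0.52). The unadjusted p was 0.0360 and the adjusted p 0.943 in edgeR's quasi-likelihood test, so the difference did not pass. Without replicate 4 at 1 mg/kg, the groups did not overlap for Tie1, as for 149 genes in all (0.799%), and the log2 fold change was 0.38 with an edgeR adjusted p of 0.643. The level of Tie1 over Tek per kilobase was 0.48 to 0.70 at 5 mg/kg, against 0.39 to 0.97 at 1 mg/kg. The highest level was 2.87 times the lowest for Tek over the 12 libraries, and 1.54 times for Tie1.

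Of the junction and adhesion genes, Cdh5 and Cldn5 had positive log2 fold changes and Pecam1 a negative one, and none passed. Pecam1 (ENSMUSG00000020717, chr11:106654217-106750628, minus strand) encodes CD31, an adhesion protein of endothelial contacts that platelets and many leukocytes carry as well. Its lowest, median and highest levels were 90.2, 105 and 131 CPM at 5 mg/kg, against 89.0, 113 and 133 CPM at 1 mg/kg. The doses overlapped over nearly their whole range, and the log2 fold change was -0.072 ± 0.14 (edgeR adjusted p 0.943). Cdh5 (ENSMUSG00000031871, chr8:104101625-104144511, plus strand) encodes VE-cadherin, the cadherin of endothelial adherens junctions. It had 75.3, 87.6 and 103 CPM (lowest, median, highest) at 5 mg/kg, against 61.8, 77.8 and 98.3 CPM at 1 mg/kg. In the 1 mg/kg group, replicates 1, 5 and 6, with 61.8, 68.6 and 64.2 CPM, lay below every other library, while the remaining libraries overlapped. Its log2 fold change was 0.18 ± 0.14 (edgeR adjusted p 0.943).

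Cldn5 (ENSMUSG00000041378, chr16:18776847-18778262, plus strand) encodes claudin-5, the claudin of endothelial tight junctions. Its levels were 11.04, 11.3, 11.2, 7.90, 13.6 and 13.5 CPM in replicates 1 to 6 at 5 mg/kg, against 8.61, 10.4, 7.13, 11.97, 9.83 and 8.15 CPM in replicates 1 to 6 at 1 mg/kg. The 5 mg/kg libraries other than replicate 4 were above 5 of the 6 libraries at 1 mg/kg. The mean was 11.4 ± 2.08 CPM at 5 mg/kg, against 9.36 ± 1.74 CPM at 1 mg/kg (SD, n = 6 each). The log2 fold change was 0.29 ± 0.16, the largest of the 10 genes, with an unadjusted p of 0.0914 and an edgeR adjusted p of 0.943.

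The glycoprotein genes and Sox18 overlapped between the doses. Emcn (ENSMUSG00000054690, chr3:137341067-137432185, plus strand) encodes endomucin, a sialoglycoprotein of capillary and venous endothelium. It had 11.1, 15.8 and 20.3 CPM (lowest, median, highest) at 5 mg/kg, against 10.6, 13.2 and 19.7 CPM at 1 mg/kg. Vwf (ENSMUSG00000001930, chr6:125546774-125686679, plus strand) encodes von Willebrand factor, which endothelium and megakaryocytes make and which tethers platelets to injured vessels. It had 32.7, 41.4 and 62.0 CPM at 5 mg/kg, against 18.0, 39.3 and 60.4 CPM at 1 mg/kg. Vwf was the most variable of the 10 genes, with a 3.44-fold range over the 12 libraries. Sox18 (ENSMUSG00000046470, chr2:181669836-181671640, minus strand) was the least abundant, with 3.44, 3.89 and 5.15 CPM at 5 mg/kg, against 2.73, 3.77 and 4.72 CPM at 1 mg/kg. The log2 fold changes of Emcn, Vwf and Sox18 were 0.11 ± 0.20, 0.081 ± 0.27 and 0.13 ± 0.16, with edgeR adjusted p of 0.943 for Emcn and Sox18 and 0.961 for Vwf. All 10 genes are annotated as protein coding, and none shared exonic bases with another annotated gene in GENCODE vM21.

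**Figure D2:**
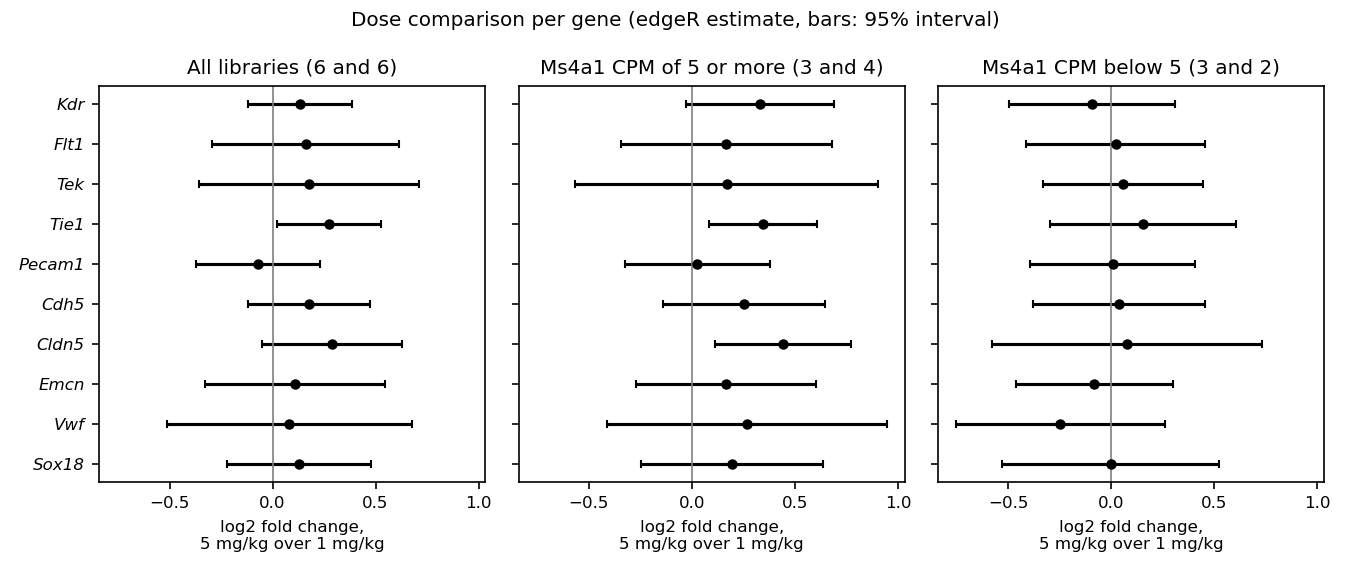
Log2 fold change of 5 mg/kg over 1 mg/kg (horizontal axis) with its 95% interval for each gene, over all libraries, over the lymphoid-rich and over the lymphoid-poor ones. The intervals that exclude 0 belong to Tie1 over all libraries and to Tie1 and Cldn5 in lymphoid-rich libraries, and none passed after adjustment.

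Within libraries grouped by lymphoid content no gene passed in edgeR either. In the 7 lymphoid-rich libraries all 10 genes had a positive log2 fold change, where 51.2% of all tested genes did, and their median was 0.22. Most of the 10 moved together across libraries, as described below, so these signs are not separate observations. Within these 7 libraries Ms4a1 still differed, at 49.0 to 104 CPM at 5 mg/kg, against 17.7 to 152 CPM at 1 mg/kg. Of 19243 genes tested there, 0 passed (0%) and 709 (3.68%) had an unadjusted p under 0.05, with 2 of the 10 among these, Tie1 and Cldn5. DESeq2 called 12 genes in these libraries, none of them among the 10. Tie1 had 21.9, 19.9 and 21.3 CPM at 5 mg/kg, against 16.9, 17.9, 17.0 and 16.4 CPM at 1 mg/kg. Cldn5 had 11.04, 11.3 and 11.2 CPM at 5 mg/kg, against 8.61, 7.13, 9.83 and 8.15 CPM at 1 mg/kg. For both genes every 5 mg/kg library was above every 1 mg/kg library, as for 763 of all tested genes (3.97%; 5.64% counting both directions). The log2 fold changes were 0.34 ± 0.11 for Tie1 (unadjusted p 0.0164) and 0.44 ± 0.14 for Cldn5 (unadjusted p 0.0146), both with an adjusted p of 0.996 in edgeR's quasi-likelihood test.

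Of the other 8 genes, 6 overlapped in the lymphoid-rich libraries through replicate 3 at 1 mg/kg, whose Ms4a1 of 17.7 CPM was the lowest among them. Kdr had 76.3, 68.8 and 61.3 CPM at 5 mg/kg, against 58.6, 65.5, 49.4 and 51.5 CPM at 1 mg/kg, where 65.5 CPM is replicate 3. Flt1 had 40.4, 33.1 and 37.6 CPM at 5 mg/kg, against 27.1, 47.7, 28.0 and 32.5 CPM at 1 mg/kg, where 47.7 CPM is replicate 3. Without it, 8 of the 10 genes, all but Pecam1 and Sox18, were higher in every 5 mg/kg library than in every 1 mg/kg library. With a boundary of 20 CPM of Ms4a1, which leaves it out, 4578 of 19159 tested genes (23.9%) did not overlap, counting both directions, and 1937 (10.1%) were higher at 5 mg/kg in this way. In that comparison of 3 with 3 libraries, 7 of the 10 genes had an unadjusted p under 0.05, as did 3066 of all tested genes (16.0%). The log2 fold change was 0.37 ± 0.10 for Tie1, 0.41 ± 0.13 for Kdr, 0.52 ± 0.17 for Tek and 0.54 ± 0.21 for Vwf, and the smallest adjusted p of the 10 was 0.259 in edgeR's quasi-likelihood test, which called 0 genes (0%). Of the 10 genes, 9 were positive, where 50.9% of all tested genes were. For Pecam1 it was -0.047 ± 0.12. The doses were not alike in Ms4a1 there, at 49.0 to 104 CPM in the 5 mg/kg libraries and 125 to 152 CPM in the 1 mg/kg libraries.

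In the lymphoid-rich libraries fat markers separated the doses, and whether they varied with the endothelial genes from library to library there was not tested. The summed level of the 5 adipocyte markers, all of them detected, was 1432 to 1534 CPM in the lymphoid-rich libraries at 5 mg/kg, against 677 to 1228 CPM at 1 mg/kg, without overlap. The 1228 CPM was in replicate 3 at 1 mg/kg, the library through which several of the endothelial genes overlapped between the doses. Over all libraries it was 1432 to 2376 CPM at 5 mg/kg, against 677 to 2569 CPM at 1 mg/kg, with all 5 markers positive in log2 fold change. The 5 fibroblast markers summed to 1725 to 2369 CPM at 5 mg/kg, against 973 to 1943 CPM at 1 mg/kg in lymphoid-rich libraries, with overlap. When the mean level of Adipoq, Plin1 and Cidec was entered as a covariate over all libraries, the log2 fold change was 0.13 ± 0.083 for Tie1, 0.19 ± 0.16 for Cldn5, 0.049 ± 0.11 for Kdr and 0.016 ± 0.099 for Cdh5. It was negative for Flt1 (-0.094), Tek (-0.15), Emcn (-0.16), Vwf (-0.20) and Sox18 (-0.064), and positive for Pecam1 (0.094), each with the opposite sign to the fit without the covariate. The part of fat content in the values was not tested beyond this.

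In the 5 lymphoid-poor libraries, 6 of the 10 genes had a positive log2 fold change, where 56.3% of all tested genes did, and their median was 0.014. Of 18695 genes tested, 0 passed with edgeR (0%), 252 (1.35%) had an unadjusted p under 0.05, and 0 of the 10 were among these. DESeq2 called 12 genes here, again none of the 10. Tie1 had 23.7, 23.3 and 24.5 CPM at 5 mg/kg, against 18.1 and 25.3 CPM at 1 mg/kg. Vwf had 45.6, 40.3 and 62.0 CPM at 5 mg/kg, against 60.4 and 57.9 CPM at 1 mg/kg. No member of the list separated the doses, while 2219 of all tested genes did (11.9%). The fit with the stratum as a term over all 12 libraries gave Tie1 a log2 fold change of 0.24 ± 0.093, with an unadjusted p of 0.0251 and an adjusted p of 0.999; it called 0 genes (0%), and 474 genes (2.54%) had an unadjusted p under 0.05, Tie1 alone among the 10. The test of the difference between strata called 0 genes in edgeR and in DESeq2, with 370 genes (1.98%) and 0 of the 10 at an unadjusted p under 0.05. Kdr came nearest among the 10, with a difference of -0.40 ± 0.21 (lymphoid-poor minus lymphoid-rich, unadjusted p 0.0847).

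**Figure D3:**
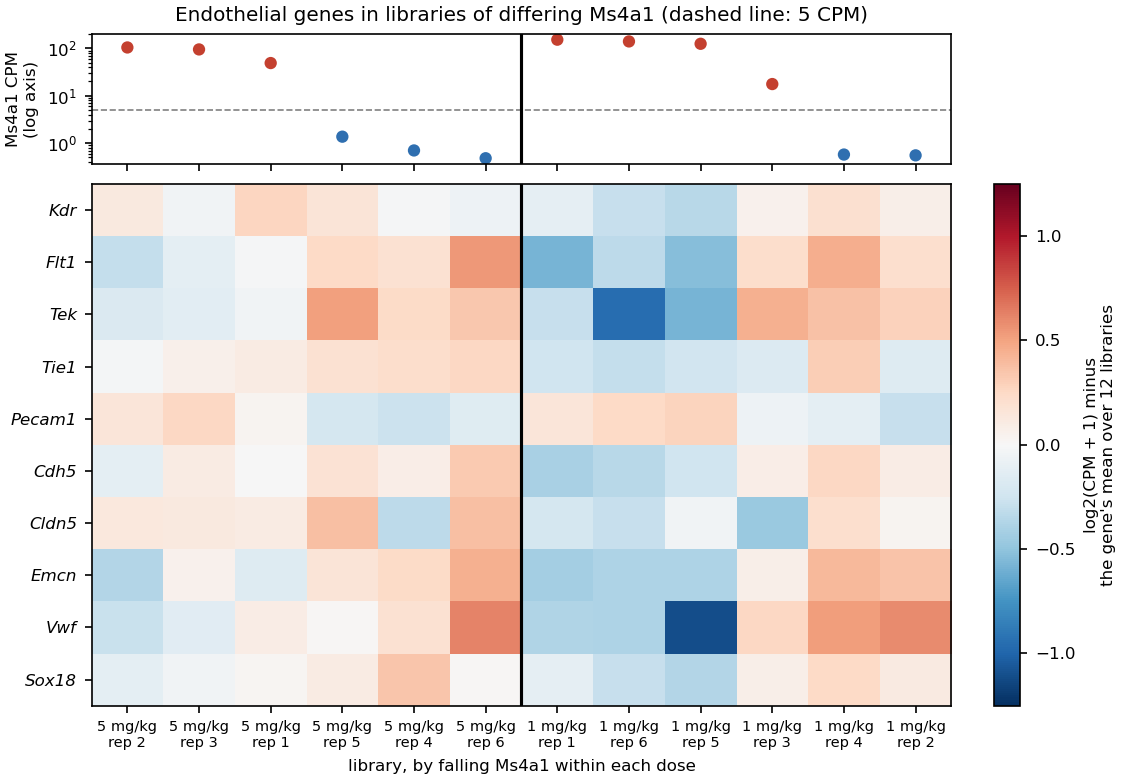
Top, Ms4a1 CPM of each library on a log axis, with the boundary of 5 CPM dashed; bottom, log2(CPM + 1) of each gene minus its mean over the 12 libraries, with libraries at 5 mg/kg on the left and at 1 mg/kg on the right, each ordered by falling Ms4a1. Replicates 1, 6 and 5 at 1 mg/kg, with Ms4a1 of 125 to 152 CPM, are below the mean for 9 genes and above it for Pecam1.

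Set out by lymphoid content in place of dose, the levels of Pecam1 and Emcn separated, in opposite directions. Pecam1 was 104 to 133 CPM in the 7 lymphoid-rich libraries and 89.0 to 100 CPM in the 5 lymphoid-poor ones, without overlap. Emcn was 10.6 to 15.4 CPM in lymphoid-rich and 16.4 to 20.3 CPM in lymphoid-poor libraries, also without overlap. Of all 18647 tested genes, 2515 (13.5%) did not overlap between the same strata, 1716 (9.20%) being higher and 799 (4.28%) lower in lymphoid-rich libraries, beside 2 of the 10. A count of 2 of the 10 is near the share of all genes, so by itself it does not set the list apart. With the boundary at 20 CPM of Ms4a1 the separation held, at 111 to 133 CPM against 89.0 to 104 CPM for Pecam1 and 10.6 to 15.2 CPM against 15.4 to 20.3 CPM for Emcn (lymphoid-rich against lymphoid-poor). There 4 of the 10 genes did not overlap, Flt1 (27.1 to 40.4 against 46.9 to 59.9 CPM) and Tek (16.1 to 31.1 against 38.0 to 46.2 CPM) being lower in lymphoid-rich libraries as Emcn was, and 3778 of all tested genes (20.3%) did not, 2939 (15.8%) being higher and 839 (4.50%) lower. With the boundary at 5 CPM, Flt1 was 27.1 to 47.7 CPM in lymphoid-rich and 46.9 to 59.9 CPM in lymphoid-poor libraries, overlapping through replicate 3 at 1 mg/kg alone. Cdh5 was 61.8 to 88.2 CPM in lymphoid-rich and 86.9 to 103 CPM in lymphoid-poor libraries. Tek, Tie1, Cldn5, Vwf and Sox18 had a higher lowest and a higher highest level in lymphoid-poor libraries, with overlap. Kdr reached its highest level, 76.3 CPM, in a lymphoid-rich library. The strata were formed from the data, so these ranges were not tested.

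The ratio of Pecam1 to Cdh5 per kilobase did not overlap between the strata, at 0.81 to 1.37 in the lymphoid-rich and 0.64 to 0.70 in the lymphoid-poor libraries. Between the doses it overlapped, at 0.64 to 1.08 at 5 mg/kg, against 0.69 to 1.37 at 1 mg/kg. Several lists of other cells moved with this split. The 5 B cell markers, all detected, summed to 68.0 to 540 CPM in lymphoid-rich and 2.23 to 5.34 CPM in lymphoid-poor libraries, and the 5 T cell markers to 38.9 to 173 CPM and 1.88 to 4.52 CPM. The 5 markers of high endothelial venules, the vessels through which lymphocytes enter lymph nodes, summed to 103 to 530 CPM and 3.54 to 9.99 CPM. The 6 lymphatic endothelial markers summed to 92.6 to 127 CPM and 34.9 to 74.4 CPM. The 5 adipocyte markers ran the opposite way, at 677 to 1534 CPM in lymphoid-rich and 1769 to 2569 CPM in lymphoid-poor libraries. Of the platelet and megakaryocyte markers, Gp1ba, Gp9 and Ppbp averaged under 1 CPM, and the summed level was 8.39 to 17.7 CPM in lymphoid-rich and 6.80 to 12.2 CPM in lymphoid-poor libraries. The part of these cells in the levels of Pecam1 and Vwf was not tested.

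Among themselves the genes other than Pecam1 and Cldn5 moved together. Libraries fell into the strata above, so Pearson's r of log2(CPM + 1) over the 12 libraries is given as a description, with the value after subtracting each stratum's mean beside it. The 12 values of a gene share their library's depth and tissue makeup. Of the 36 pairs without Pecam1, 36 were positive over the 12 libraries (median r 0.71), and 34 were positive within strata (median r 0.52). The share of positive pairs among all genes was not computed. Over the 12 libraries the highest were Flt1 with Emcn (0.94, and 0.85 within strata), Flt1 with Cdh5 (0.94, and 0.88 within strata) and Cdh5 with Emcn (0.93, and 0.87 within strata). Tie1 went most with Cdh5 (0.82, and 0.67 within strata), and Kdr and Sox18 went most with Tek. Cldn5 was the loosest of the 9, with Tie1 as its nearest gene (0.62, and 0.49 within strata). Within strata its r was 0.37 with Cdh5 and 0.30 with Kdr, but 0.081 with Flt1, 0.053 with Tek and 0.025 with Emcn. With Vwf (-0.051) and Sox18 (-0.34) it was negative there. Pecam1 was negative with all 9 others over the 12 libraries, and within strata it was positive with Tie1 (0.057) and Cldn5 (0.41) only.

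**Figure D4:**
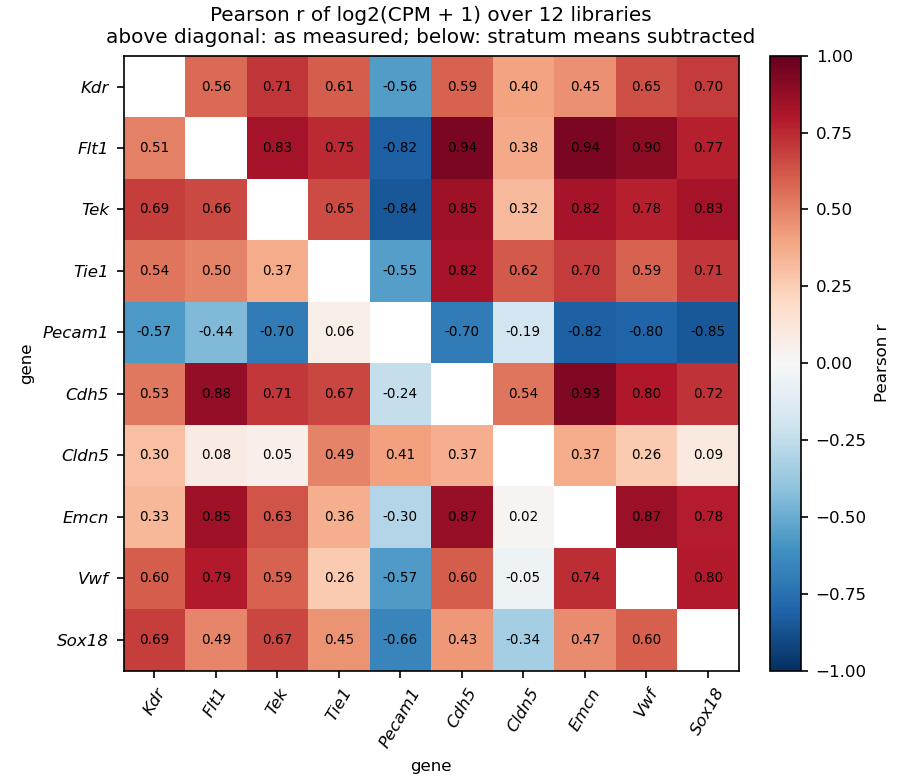
Pearson r between the genes over 12 libraries, on a scale from -1 to 1; cells above the diagonal use log2(CPM + 1) as measured and cells below it the same values after subtracting the mean of each Ms4a1 stratum. Flt1, Cdh5 and Emcn form the reddest cells, and the row of Pecam1 is blue above the diagonal.

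Over the 12 libraries the genes outside the list with the closest profile to the mean of the 10 were Cavin1 (r 0.97), which encodes a coat protein of caveolae, and Sik2 (r 0.96), which encodes a kinase, ranked among 10122 genes with a mean of at least 5 CPM. Runx1t1, Rbms2, Aldh7a1, Palm, Dab2ip, Adamts5, Rassf8 and Adrb3 followed, with r from 0.95 upward. Adrb3 encodes the beta-3 adrenergic receptor of adipocytes. Within strata, Cavin1 kept an r of 0.98 and Sik2 of 0.95. Summed over the 10 genes, the level was 405 to 487 CPM at 5 mg/kg, against 359 to 489 CPM at 1 mg/kg, and its lowest values, 365, 359 and 363 CPM, were in replicates 1, 5 and 6 at 1 mg/kg.

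**Figure D5:**
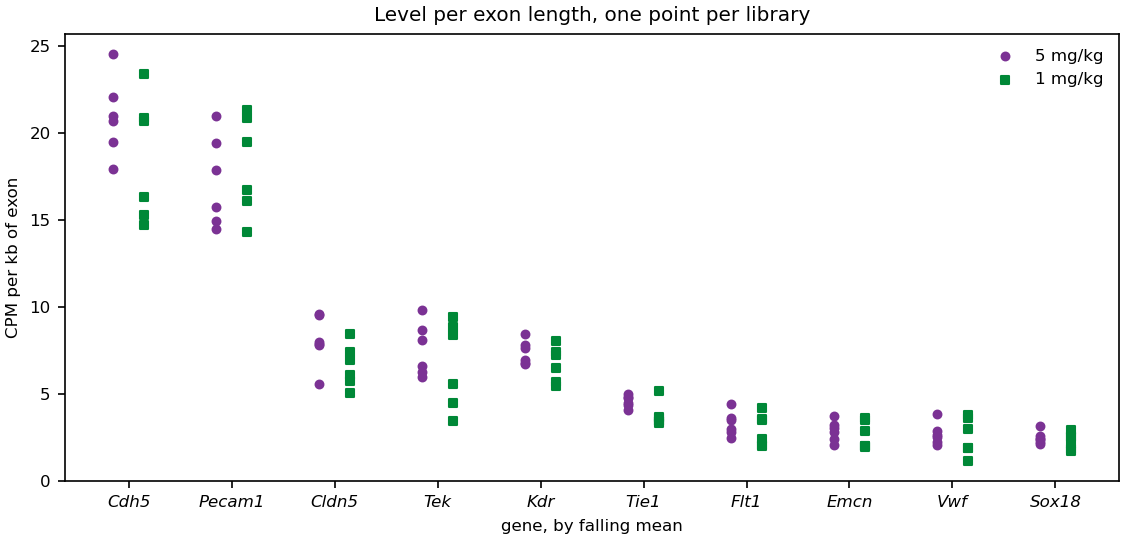
CPM per kilobase of exon (vertical axis, from 0) for each gene, ordered by falling mean, with 1 point per library, 5 mg/kg left of 1 mg/kg. Cdh5 and Pecam1 lie apart from the other 8 genes, which fall between 1.12 and 9.81.

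Per kilobase of exon, Cdh5 and Pecam1 were the most abundant, at 19.7 ± 3.11 and 17.7 ± 2.64 CPM per kilobase (SD, n = 12). The length merges the exons of all annotated transcripts of a gene, so the order between genes depends on the annotation. Cdh5 was above Pecam1 in 8 of 12 libraries, so their order was not fixed. Pecam1 was above the next gene, Cldn5, in 12 of 12. Cldn5, Tek and Kdr had 7.33 ± 1.498, 7.13 ± 2.04 and 7.06 ± 0.90 CPM per kilobase and could not be ordered, as Cldn5 exceeded Tek in 7 libraries and Tek exceeded Kdr in 6. Tie1 had 4.17 ± 0.66 CPM per kilobase, below Kdr and above Flt1 in 12 of 12 libraries. Flt1, Emcn, Vwf and Sox18 had 3.12 ± 0.79, 2.77 ± 0.67, 2.62 ± 0.84 and 2.39 ± 0.42 CPM per kilobase, with neighbours in this order exchanging places in 2 to 6 libraries.

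Pericytes and smooth muscle cells, which wrap vessels, were read by 7 mural markers, of which 5 were positive by dose, with a median log2 fold change of 0.20 and a summed level of 372 to 557 CPM at 5 mg/kg, against 303 to 606 CPM at 1 mg/kg. Among ligands and partners of these receptors 0 genes passed the dose comparison over all libraries in edgeR, as among all tested genes (0%). Of all tested genes, 47.2% had a positive log2 fold change. The VEGF ligands and co-receptors had 6 of 8 genes positive, with a median log2 fold change of 0.15. The largest change in size among the 8 was negative, at -0.40 ± 0.27 for the ligand gene Pgf. Nrp1, a VEGF co-receptor, had 64.1, 85.0 and 105 CPM (lowest, median, highest) at 5 mg/kg, against 51.6, 67.0 and 86.2 CPM at 1 mg/kg, with a log2 fold change of 0.29 ± 0.17. The angiopoietin ligands and regulators had 5 of 6 positive, with a median of 0.20, and Angpt1, the ligand that activates TIE2, had 0.26 ± 0.26. Ptprb, which encodes the phosphatase VE-PTP that acts on TIE2 and VE-cadherin, had 0.14 ± 0.24.

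In the following lists 0 genes passed in edgeR either, as among all tested genes (0%), of which 47.2% were positive. In edgeR, 1.93% of all tested genes had an unadjusted p under 0.05, and in these lists only Ramp2, Esm1 and Sele did. Of 20 other junction and adhesion genes, 13 were positive, with a median of 0.096. Cd34, an adhesion protein of endothelium and progenitor cells, had 0.36 ± 0.23. Of 16 other endothelial receptors, 12 were positive, with a median of 0.12. Ramp2, a partner of the adrenomedullin receptor, had 12.8, 13.8 and 15.03 CPM at 5 mg/kg, against 9.34, 11.2 and 13.1 CPM at 1 mg/kg, with a log2 fold change of 0.29 ± 0.11 (unadjusted p 0.0193). Of 14 secreted and haemostatic genes, 12 were positive, with a median of 0.23. Esm1, which encodes endocan, a proteoglycan of sprouting endothelium, was scarce, at 0.576 to 0.902 CPM at 5 mg/kg, against 0.335 to 0.577 CPM at 1 mg/kg, with a log2 fold change of 0.60 ± 0.20 (unadjusted p 0.0102). Sele, which encodes E-selectin, had 0.63 ± 0.28 (unadjusted p 0.0416) at a mean under 1 CPM. Of 18 endothelial transcription factors, 7 were positive and 11 negative, with a median of -0.10, and Ets1, which lymphocytes express as well, ranged from 38.0 to 207 CPM at 5 mg/kg, against 40.9 to 297 CPM at 1 mg/kg.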

How the data were processed

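Each deposited file holds the authors' raw read counts for 1 library. STAR, the genome build mm10 and HTSeq 0.6.1 are named in the submitters' processing notes; version of STAR, annotation and strand setting: not given in the sources used here. The TruSeq v2 kit, named in the labels' protocols, does not mark strand. Reads given to no gene (16.7% to 35.7%) were left out. Since no label says that libraries of a dose are separate animals, p-values measure the spread between samples, which may be technical. Libraries of the same dose all differed beyond sampling noise. Doses were compared with edgeR 4.0.16 in R 4.3.3 (filterByExpr, TMM, robust quasi-likelihood F-test), with Benjamini-Hochberg adjustment over all tested genes and 0.05 as the threshold, over all 12 libraries and within strata of Ms4a1 CPM (5 or more, and below). Standard errors derive from the F statistic. DESeq2 1.42.0 and limma 3.58.1 were alternatives. The fit was tested on simulated data. Members, gene lists and tests were chosen with earlier results of these data known. From each other list the 3 genes of smallest p and the most abundant gene could be named; those printed were picked with their values known. Overlap counts without a library and between strata, ranges at the 20 CPM boundary and members' values with the stratum as a term were added after seeing the data.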

Additional observations from a re-analysis of the deposited data

Results flagged for a closer look

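Among 30 checks of a group for a library far from its others, 2 stood out, and chance gives about 1 in 20 such groups. Tie1 in replicate 4 at 1 mg/kg was 25.3 CPM, while the next highest library of that dose had 18.1 CPM, so the gap made up 0.81 of the group's range. Emcn in replicate 3 at 1 mg/kg was 15.4 CPM, while the next highest of the 4 lymphoid-rich libraries at that dose had 10.9 CPM, a gap of 0.93 of the range.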

How the results depend on the processing

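No paired analysis was possible because replicates were numbered by record order, which pairs no samples between doses. The count of genes passing was 0 over all libraries, with the stratum as a term and for the difference between strata under every alternative run. DESeq2 called 12 genes in lymphoid-rich and 12 in lymphoid-poor libraries, and leaving out single lymphoid-poor libraries gave 0 to 11 genes, with 11 without replicate 6 at 5 mg/kg. Fits that gave other values reversed the sign of 9 of 230 member values over all libraries, 4 of 90 in lymphoid-rich and 25 of 80 in lymphoid-poor libraries, of which 1, 1 and 6 came from scaling by library size alone; the cause was not tested. With the adipocyte covariate the log2 fold changes over all libraries were -0.094 for Flt1, -0.15 for Tek, 0.094 for Pecam1, -0.16 for Emcn, -0.20 for Vwf and -0.064 for Sox18. Scaling by library size alone, which moves the median of all genes to -0.16, gave -0.0096 for Sox18 over all libraries, -0.087 for Pecam1 in lymphoid-rich libraries, and in lymphoid-poor ones -0.11 for Flt1, -0.13 for Tek, -0.00092 for Tie1, -0.15 for Pecam1, -0.11 for Cdh5 and -0.074 for Cldn5. With an Ms4a1 boundary of 20 CPM, Pecam1 was -0.047 in lymphoid-rich and -0.054 in lymphoid-poor libraries, where Emcn was 0.0073 and Sox18 0.029. DESeq2 gave Pecam1 -0.010 in lymphoid-poor libraries. Leaving out 1 library at a time gave, over all libraries, -0.072 to 0.24 for Vwf, -0.13 to -0.0048 for Pecam1, 0.042 to 0.30 for Tek, 0.056 to 0.29 for Flt1, 0.018 to 0.22 for Emcn, 0.056 to 0.21 for Sox18 and 0.082 to 0.19 for Kdr, none of which passed. The lowest values came without replicate 6 at 5 mg/kg for Flt1 and Emcn, without replicate 6 at 1 mg/kg for Tek and without replicate 5 at 1 mg/kg for Sox18; the highest came without replicate 4 at 1 mg/kg for Flt1, Emcn and Sox18 and without replicate 3 at 1 mg/kg for Tek. In lymphoid-rich libraries it gave -0.047 to 0.050 for Pecam1, -0.017 to 0.52 for Tek, 0.043 to 0.38 for Flt1, 0.028 to 0.54 for Vwf, 0.050 to 0.31 for Emcn, 0.074 to 0.30 for Sox18 and 0.20 to 0.41 for Kdr, the highest of each but Pecam1 and Kdr without replicate 3 at 1 mg/kg. In lymphoid-poor ones the ranges were -0.11 to 0.14 for Flt1, -0.040 to 0.12 for Tek, -0.072 to 0.41 for Tie1, -0.083 to 0.081 for Pecam1, -0.050 to 0.11 for Cdh5, -0.064 to 0.29 for Cldn5, -0.13 to 0.068 for Sox18, -0.18 to -0.041 for Kdr, -0.19 to -0.033 for Emcn and -0.46 to -0.14 for Vwf. The unadjusted count over all libraries moved to 1445 without replicate 4 at 1 mg/kg, beside 359. With 6 libraries a dose, the 95% interval of a member reached 0.25 to 0.59 on the log2 scale to either side before adjustment; passing after adjustment took more, since Tie1 at 0.38 without replicate 4 at 1 mg/kg had an edgeR adjusted p of 0.643.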
